A study of Mus musculus with 6 samples.

Results

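The Zeb, Snail and Twist genes encode the transcriptional repressors that hold cells in a mesenchymal state. The family was taken by name as 7 genes (Zeb1, Zeb2, Snai1, Snai2, Snai3, Twist1 and Twist2) out of the 54532 genes of the deposited table, by a rule that uses names and no measured value. Each symbol matched 1 row. All 6 libraries came from compact bone of mouse femurs and tibias, cultured as digested bone chips and sorted on the fluorescent Cre reporter as Prx1+ mesenchymal stromal cells (MSCs). The 3 WT libraries had the genotype Prx1-Cre+; ROSA-YFP; Zeb1wt/wt, and the 3 Zeb1Prx1 libraries Prx1-Cre+; ROSA-YFP; Zeb1fl/fl. Cre and the reporter were thus shared by both groups, all cells were untreated, and the groups differed in their Zeb1 alleles alone, as far as the labels go. Prx1-Cre is active in limb mesenchyme, so cells of other origin in a Zeb1Prx1 library would keep intact Zeb1. The labels name neither the deleted part of Zeb1, the age or sex of the mice, nor whether replicates were separate mice or cultures. A p-value here therefore reflects the spread of the 3 libraries per genotype, which may be technical in origin.

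Zeb1 and Zeb2 are large proteins with a homeodomain between clusters of zinc fingers, and they bind the E-box CACCTG, which reads CAGGTG on the opposite strand, and recruit CtBP corepressors. Snai1, Snai2 and Snai3 bind the same E-box through zinc fingers at one end and recruit corepressors through a short SNAG motif at the other. Twist1 and Twist2 are basic helix-loop-helix (bHLH) factors that bind DNA as dimers with E proteins. All are best known from epithelial-mesenchymal transition, where they silence epithelial genes such as E-cadherin. In the skeleton Twist1 is known to restrain osteoblast differentiation, and Snai1 is known in chondrocytes as an effector of Fgfr3 signalling. Zeb2 is also a factor of macrophage identity. The comparison addresses what loss of Zeb1 does in these cells, and here how the other repressors stand beside it.

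The E-box was looked up in the promoters of the family and of 44 epithelial genes listed as known targets of these repressors. RefSeq promoter windows (build GRCm38.p6, 250 bases before to 50 after the start) held 4 of the 7 family members, Zeb2, Snai1, Twist1 and Twist2, and 25 of the epithelial genes. The search was for CACCTG on both strands. It was found for 19 of the 25 epithelial genes (76%), against 22.2% of the 16497 protein-coding genes with a window and 20.2% of all 32851 windows. Among the family it was found for Snai1 only, and in none of the 4 windows of Zeb2 or the single windows of Twist1 and Twist2. A match is a description of the letters in a window and does not show a binding site. The stretches below are shown because they carry the E-box, in capitals, in Snai1 and in Spint2, F11r, Patj and Krt8. Snai1 is the family member that has it, and the others are listed epithelial genes named further on that have it before their start. Tjp3 is named further on as well, with fewer fragments in Zeb1Prx1. Its E-boxes began 108 and 17 bases before its annotated starts and are not shown.
Snai1 (chr2:167538042-167538101, plus strand): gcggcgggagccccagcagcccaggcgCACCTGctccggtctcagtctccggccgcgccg
Spint2 (chr7:29282019-29282078, minus strand): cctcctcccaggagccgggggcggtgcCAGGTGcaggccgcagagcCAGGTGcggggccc
F11r (chr1:171437412-171437471, plus strand): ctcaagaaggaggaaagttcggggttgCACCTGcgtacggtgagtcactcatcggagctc
Patj (chr4:98395780-98395825, plus strand): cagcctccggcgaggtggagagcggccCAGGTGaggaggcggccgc
Krt8 (chr15:102004421-102004480, minus strand): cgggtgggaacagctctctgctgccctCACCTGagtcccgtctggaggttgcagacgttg
The E-box of Snai1 began 126 bases before its start, and the upstream E-boxes of Spint2 began 74, 55 and 9 bases before its start, 2 of them in the stretch shown.

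Values are FPKM (the authors divided the fragments of a gene by its length and by a total for the library), given as mean ± SD with n = 3 per genotype. A log2 change is the Zeb1Prx1 mean less the WT mean of log2(FPKM + 1), a scale that understates the change of low genes, with the standard error (SE) from limma. The libraries held 14724357 to 18354894 assigned fragments, recovered from FPKM and gene length. Limma called 0 of 12534 tested genes (0%) at an adjusted p of 0.05, voom on the recovered fragments also called 0, and 1897 genes (15.1%) had an unadjusted p under 0.05 by limma. The genotypes did not overlap for 24.4% of the tested genes. The stromal label was checked on its markers, and Prrx1 had 18.1 to 30.5 FPKM and Col1a1 1432 to 3368 over the 6 libraries. Other stromal markers were less even. Pdgfra ran from 2.65 to 30.2 FPKM in WT and from 4.73 to 47.0 in Zeb1Prx1, and Lum from 2.10 to 32.2 and from 31.5 to 695. Macrophage transcripts were abundant as well, with Adgre1 (F4/80) at 215 to 250 FPKM in WT and 117 to 164 in Zeb1Prx1. The macrophage marker Lyz2 was above Col1a1 in each library. It had 8118 to 10490 FPKM in WT and 7034 to 16368 in Zeb1Prx1, so the genotypes overlapped. Of 10 endothelial markers 1 was tested, Vwf, with 1.76 to 2.64 FPKM in WT and 0.905 to 1.48 in Zeb1Prx1. Pecam1 and Cdh5 stayed at or under 0.116 FPKM in all libraries, while Erg reached 3.87 FPKM in Zeb1Prx1 replicate 3. None of the 9 lymphocyte, 10 neutrophil and 7 erythroid markers reached the filter of at least 1 FPKM in at least 3 libraries that defined the tested genes. Zeb1Prx1 replicate 2 stood apart in gene length. Its genes under 2 kb lay 0.43 above their mean over the 6 libraries in the median log2(FPKM + 1), and its genes of 10 kb or more lay 0.43 below it. In the other 5 libraries these medians ran from -0.17 to 0.07 and from -0.07 to 0.19. Xist was at 26.8 to 40.4 FPKM in WT and 0.00309 to 12.6 in Zeb1Prx1, and the Y-linked Ddx3y at 4.45 to 8.19 and 14.6 to 21.9, so the sex makeup of the libraries moved with genotype, and its part in the results was not tested.

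The groups were separated by a lower Zeb pair and by higher Snai2 and Twist1, none of which passed the test over all genes. Of the 7 members, 5 were tested, each with at least 1 FPKM in all 6 libraries, and 0 were called (0% of all tested genes were). The genotypes did not overlap for 4 of these 5, Zeb1 and Zeb2 being lower and Snai2 and Twist1 higher, where 11.8% of all tested genes were lower and 12.6% higher without overlap. The same 4 genes had an unadjusted p under 0.05, which 6.98% of all tested genes had on the lower side and 8.15% on the higher. Zeb1 is the targeted gene that defines the genotypes, so its place among the 4 is no independent result. Zeb1 and Zeb2 kept an unadjusted p under 0.05 by limma in every alternative run, and Snai2 and Twist1 did not. Theirs was 0.10 and 0.0676 with quantile scaling, 0.140 and 0.110 with equal FPKM sums, 0.188 and 0.201 with the length trend removed, 0.121 and 0.0846 without WT replicate 1, 0.107 and 0.107 without WT replicate 2, and 0.0938 and 0.0941 without Zeb1Prx1 replicate 3. Without Zeb1Prx1 replicate 1 Snai2 alone lost it (0.0638). With the length trend removed and Zeb1Prx1 replicate 2 left out, the limma values were 0.0849 and 0.0513. In bulk libraries such as these, fewer cells of a type and less RNA per cell cannot be told apart.

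Zeb1 (ENSMUSG00000024238, mm10 chromosome 18, 5591860 to 5775467) showed 6.61, 10.3 and 7.12 FPKM in WT replicates 1, 2 and 3 and 1.92, 1.59 and 2.84 in Zeb1Prx1 replicates 1, 2 and 3. Every mutant library lay below every WT library, with 295 to 445 fragments against 1123 to 1620. The mutant mean was 0.264 times the WT mean (0.219 to 0.308 when any 1 library was left out), and the log2 change was -1.53 (SE 0.22, 95% interval -2.05 to -1.01, limma adjusted p = 0.229). This is the check of the genotype labels, which it met in each library, and it was the lowest log2 change of the 781 tested genes that the table marks as transcription factors. FPKM is counted over the whole gene, here 10266 exon bases. Fragments of a transcript that lacks only the deleted part still count, so the remaining level does not give the share of cells with an intact allele. The antisense gene Gm10125 shares 198 exon bases with Zeb1 and had 12 to 34 fragments per library.

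Zeb2, the paralog of Zeb1 (ENSMUSG00000026872, chromosome 2, 44983632 to 45117395), had 16.3, 18.0 and 17.3 FPKM in WT, against 12.9, 8.06 and 8.76 in Zeb1Prx1. The WT libraries lay close together, and all 3 mutant libraries were below them, replicate 1 the least. The log2 change was -0.76 (SE 0.19, 95% interval -1.21 to -0.32, limma adjusted p = 0.264), with 17.2 ± 0.88 against 9.91 ± 2.62 FPKM, and 8 tested transcription factors had a lower one. With equal libraries replaced by library weights, both Zeb genes passed (limma adjusted p = 0.042 for Zeb1 and 0.0463 for Zeb2), in a setting that called 447 of the 12534 tested genes. The weights of Zeb1Prx1 replicates 1, 2 and 3 were 0.66, 0.23 and 2.82, so the mutant side rested mostly on replicate 3. Zeb2os, on the opposite strand, shares 653 exon bases with Zeb2 and had 13 to 58 fragments per library against 2667 to 5947 for Zeb2. Whether the counting used strand is not given in the sources used here.

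Zeb2 was set against the macrophage genes, since both were lower in the mutant. Of the 25 macrophage markers, all tested, 21 had a log2 change below 0 with a median of -0.32, beside a median of 0.02 over all tested genes, and 8 were lower without overlap, as were 11.8% of all tested genes. Their mean log2(FPKM + 1) was 7.30, 7.34 and 7.37 in the WT libraries, against 6.91, 7.29 and 6.81 in the mutant ones. Zeb2 minus this mean was -3.18, -3.09 and -3.18 log2 units in WT, against -3.12, -4.11 and -3.52 in Zeb1Prx1. Relative to the macrophage genes Zeb2 was thus inside the WT range in mutant replicate 1, and below it in replicates 2 and 3. The difference of -0.43 did not exceed the spread (exact permutation test, two-sided, p = 0.3, where 0.1 is the smallest that 3 against 3 allows). It was -0.17 without Zeb1Prx1 replicate 2, -0.67 without Zeb1Prx1 replicate 1 and -0.24 with quantile scaling. Zeb2 has 19942 exon bases, and genes of 10 kb or more had a median deviation of -0.43 in Zeb1Prx1 replicate 2. The difference to the macrophage genes was not run with the length trend removed, so the part of gene length in it was not tested.

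Together, Zeb1 and Zeb2 summed to 22.9, 28.3 and 24.4 FPKM in WT, against 14.8, 9.66 and 11.6 in Zeb1Prx1. The mutant mean of the sum was 0.477 times that of WT, and the groups did not overlap (exact permutation test, two-sided, p = 0.1, the smallest possible). No mutant library had more Zeb2 than a WT library, so the level of the paralog was not higher where Zeb1 was low. Zeb1 made up 28.9%, 36.3% and 29.2% of the sum in WT and 12.9%, 16.5% and 24.5% in Zeb1Prx1, again without overlap (exact permutation p = 0.1). As the targeted gene, Zeb1 enters both the sum and this share, so neither is independent of the genotype. The highest mutant share was that of replicate 3, which also had the highest Zeb1 of the mutant libraries.

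**Figure D1:**
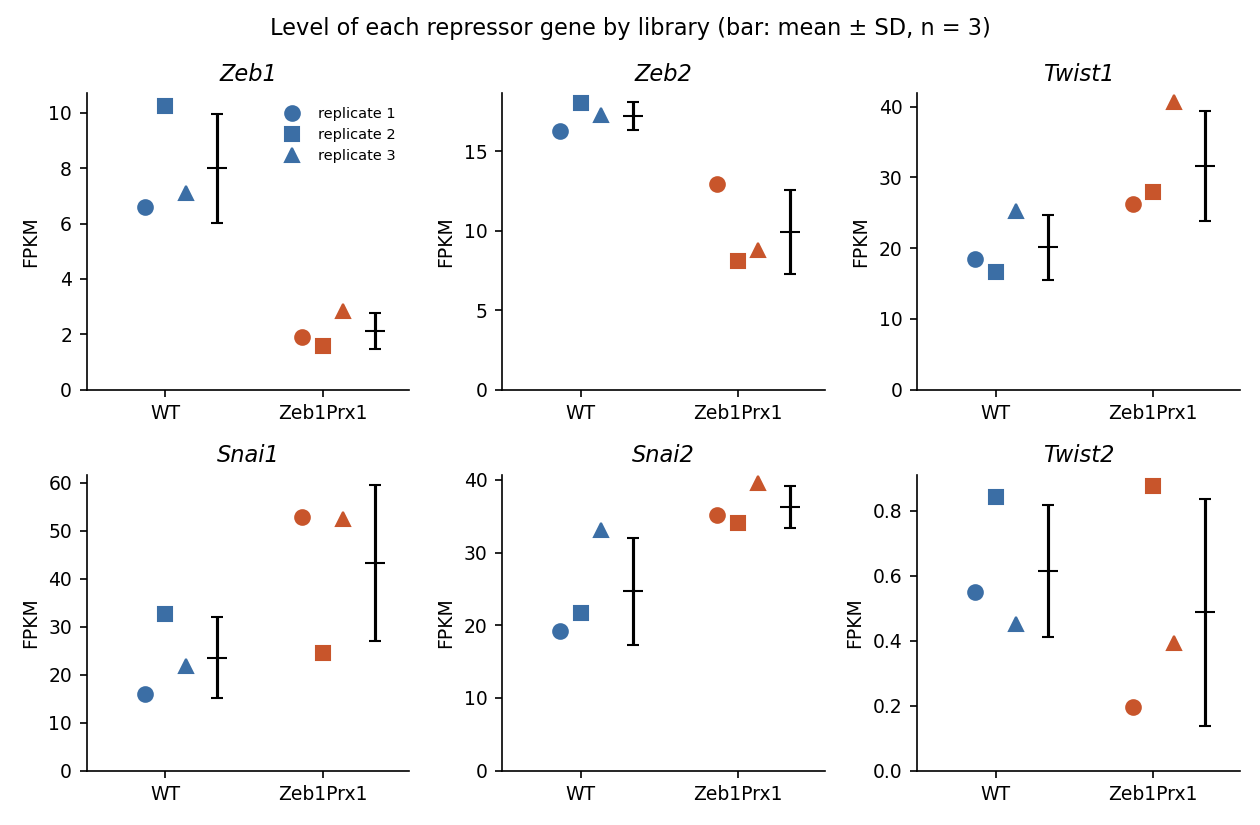
FPKM of 6 family members (vertical axes, each from 0) by genotype (horizontal axis); each point is 1 library, its shape gives the replicate number, and the black bar is the mean ± SD of 3 libraries. Zeb1 and Zeb2 lie lower and Snai2 and Twist1 higher in every Zeb1Prx1 library than in every WT library, while Snai1 and Twist2 overlap.

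Snai1, the Snail factor that responds fast to growth factor signals (ENSMUSG00000042821, chromosome 2, 167538195 to 167542814), had 16.0, 32.7 and 21.8 FPKM in WT, against 52.8, 24.5 and 52.4 in Zeb1Prx1. Mutant replicates 1 and 3 were above every WT library, and replicate 2 lay inside the WT range, so the groups overlapped. The means were 23.5 ± 8.48 and 43.3 ± 16.2, with a log2 change of 0.83 (SE 0.37, 95% interval -0.04 to 1.70, limma adjusted p = 0.339). Without Zeb1Prx1 replicate 2 the log2 change was 1.19 (adjusted p = 0.302). Cartilage transcripts were also highest in mutant replicates 1 and 3: Col2a1 had 383, 60.0 and 1175 FPKM in mutant replicates 1, 2 and 3 and 1.17 to 5.32 in WT. Of 18 chondrocyte markers 8 were tested, of which Acan and Col11a2, for example, passed the filter through the mutant libraries alone. The mean log2(FPKM + 1) of these 8 was 4.70, 3.25 and 6.58 in the mutant and 1.60 to 2.60 in WT. The part of chondrocyte content in the Snai1 values was not tested.

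Snai2, or Slug, which is known from neural crest and other mesenchyme (ENSMUSG00000022676, chromosome 16, 14705852 to 14709385), had 19.2, 21.8 and 33.1 FPKM in WT, against 35.1, 34.1 and 39.6 in Zeb1Prx1. The mutant libraries were close to each other and all above WT, although WT replicate 3 came close to the lowest of them. The means were 24.7 ± 7.37 and 36.3 ± 2.94, with a log2 change of 0.57 (SE 0.22, 95% interval 0.05 to 1.09, limma adjusted p = 0.307). Snai2 made up 54.5%, 39.9% and 60.2% of the summed Snail FPKM in WT and 39.9%, 58.1% and 43.0% in Zeb1Prx1, so neither gene led the family in all libraries of a genotype (exact permutation p = 0.8).

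Snai3, the third Snail gene (ENSMUSG00000006587, chromosome 8, 122454208 to 122460733), had 1 fragment in WT replicate 3 and 0 in the other 5 libraries. A count of 0 allows up to 3 fragments, a limit that covers counting error only, so it was not detectable beyond that at this depth.

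Twist1 (ENSMUSG00000035799, chromosome 12, 33957671 to 33959829) had 18.5, 16.6 and 25.2 FPKM in WT, against 26.3, 28.0 and 40.6 in Zeb1Prx1. All mutant libraries were higher, replicate 3 by far the most, and the gap between the highest WT and the lowest mutant library was small. The means were 20.1 ± 4.54 and 31.6 ± 7.83, with a log2 change of 0.62 (SE 0.23, 95% interval 0.08 to 1.17, limma adjusted p = 0.302). Twist2 (ENSMUSG00000007805, chromosome 1, 91801461 to 91848028) stayed under 1 FPKM, with 0.551, 0.84 and 0.451 in WT, against 0.196, 0.874 and 0.392 in Zeb1Prx1, from 10 to 50 fragments. It was under the filter and overlapped between the groups, and the antisense gene Gm29100 shares 1477 of its 3174 exon bases. Twist1 therefore made up 95.2% to 98.2% of the Twist sum in WT and 97.0% to 99.3% in Zeb1Prx1.

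The level of stromal genes also varied between libraries. Of 21 stromal markers 19 were tested (Twist2, also listed, was not), with 12 above 0, 7 below and a median log2 change of 0.19. Their mean log2(FPKM + 1) was 4.56, 5.56 and 5.40 in WT, against 5.46, 5.01 and 6.20 in Zeb1Prx1. Relative to this mean, Twist1 was 0.24 higher in the mutant (-0.80 ± 0.58 in WT, -0.55 ± 0.35 in Zeb1Prx1, exact permutation p = 0.6) and Snai2 0.19 higher (-0.53 ± 0.46 and -0.34 ± 0.49, p = 0.6 by the same exact test). Neither difference exceeded the spread, and without WT replicate 2 they were -0.074 and -0.072. Without Zeb1Prx1 replicate 2 the difference of Snai2 was -0.040.

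**Figure D2:**
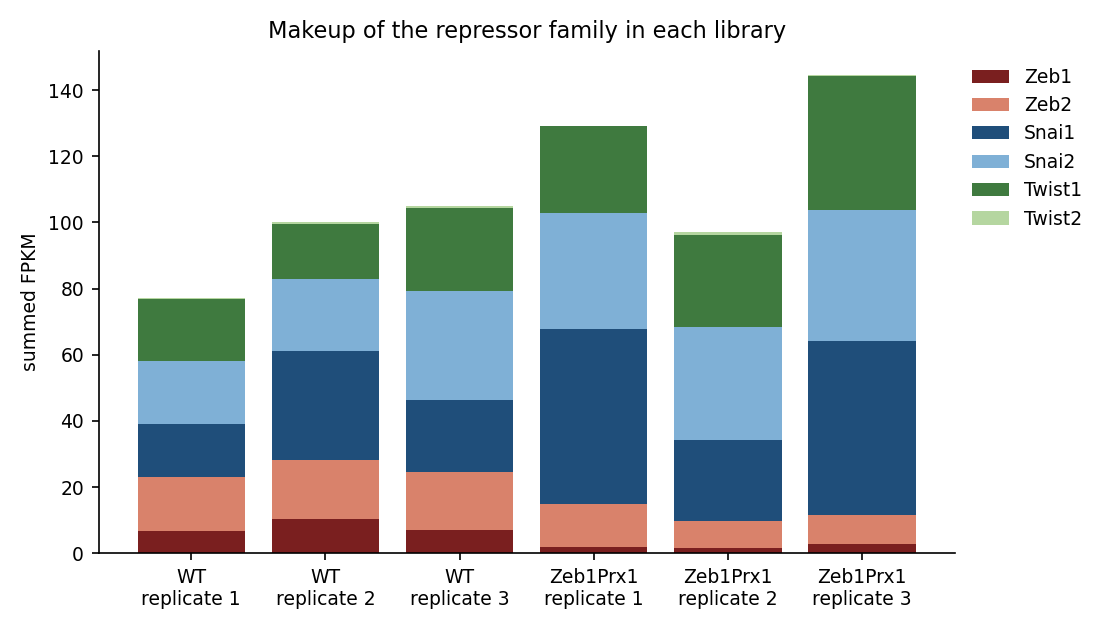
Summed FPKM (vertical axis, from 0) of the family in each of the 6 libraries (horizontal axis), divided by gene; Snai3 is too low to see. Zeb1 plus Zeb2 took 23.2% to 29.7% of the bar in WT and 8.02% to 11.5% in Zeb1Prx1, a share that includes the targeted gene Zeb1.

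Set side by side on the FPKM scale, which is per length, the family kept its order by mean in both genotypes except for Snai1 and Snai2. These changed places, and their ranges overlapped in both genotypes. In WT the means ran from Snai2 (24.7) over Snai1 (23.5), Twist1 (20.1) and Zeb2 (17.2) to Zeb1, Twist2 (0.614) and Snai3. The first 4 of these did not differ from their neighbours beyond the spread, since their ranges overlapped, while Zeb2 was above Zeb1 and Zeb1 above Twist2 in all 3 libraries. In Zeb1Prx1 Snai1 (43.3), Snai2 (36.3) and Twist1 (31.6) overlapped with their neighbours, and Twist1 was now above Zeb2 (9.91) in all 3 libraries without overlap. Zeb1 plus Zeb2 took 27.0% ± 3.37 of the summed family in WT and 9.81% ± 1.73 in Zeb1Prx1 (exact permutation test, two-sided, p = 0.1, the smallest possible). Zeb1, the targeted gene, enters this share, which is thus not independent of the genotype. Among the 1469 genes marked as transcription factors, Zeb1 ranked 250 by mean FPKM in WT and 586 in Zeb1Prx1, and Zeb2 104 and 190. Snai1 moved from rank 68 to 21, Snai2 from 60 to 31 and Twist1 from 81 to 40.

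The members that were lower are long and those that were higher are short, and gene length moved with genotype as well. Zeb1 and Zeb2 have 10266 and 19942 exon bases, Snai1 1621, Twist1 1628 and Snai2 2021. The median log2 change was 0.27 over the 2693 tested genes under 2 kb and -0.26 over the 1047 of 10 kb or more, and without Zeb1Prx1 replicate 2 these medians were 0.14 and -0.12. With the length trend of each library removed, an alternative chosen after seeing the data, Zeb1 was at -1.31 (SE 0.19) and Zeb2 at -0.40 (SE 0.13). Snai1 was at 0.57 (SE 0.46), Snai2 at 0.36 (SE 0.25) and Twist1 at 0.37 (SE 0.26), so that all 5 kept their direction and none passed (limma adjusted p between 0.258 and 0.572). The values of Zeb2, Snai2 and Twist1 were thereby reduced more than 1.5 times. With the trend removed and replicate 2 left out as well, they were -0.47, 0.53 and 0.59, and Zeb1 and Snai1 -1.30 and 1.08.

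**Figure D3:**
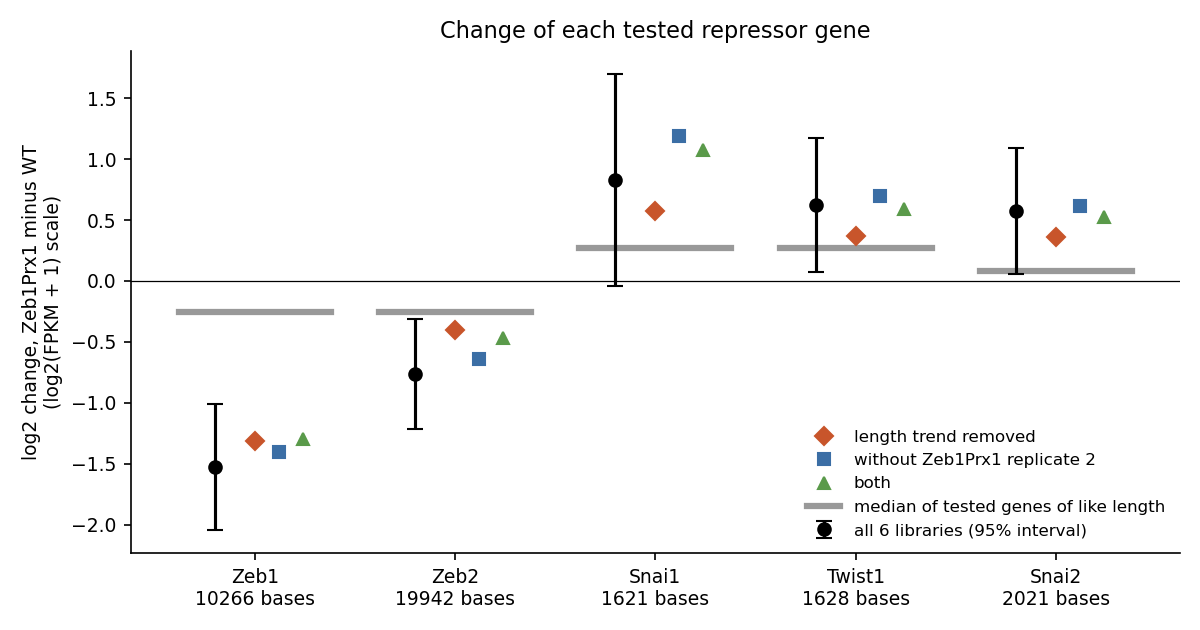
Log2 change (vertical axis, Zeb1Prx1 minus WT on log2(FPKM + 1)) of the 5 tested members (horizontal axis, with exon bases); black points with 95% intervals use all 6 libraries, coloured points the alternatives named in the legend, and grey bars give the median of tested genes in the same length class. Zeb1 lies far below its grey bar under every setting shown. Zeb2, Snai1, Snai2 and Twist1 lie on the same side of 0 as theirs, and further from 0. The grey bars lie inside the 95% intervals of Snai1, Snai2 and Twist1, and they use all 6 libraries with no trend removed.

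**Figure D4:**
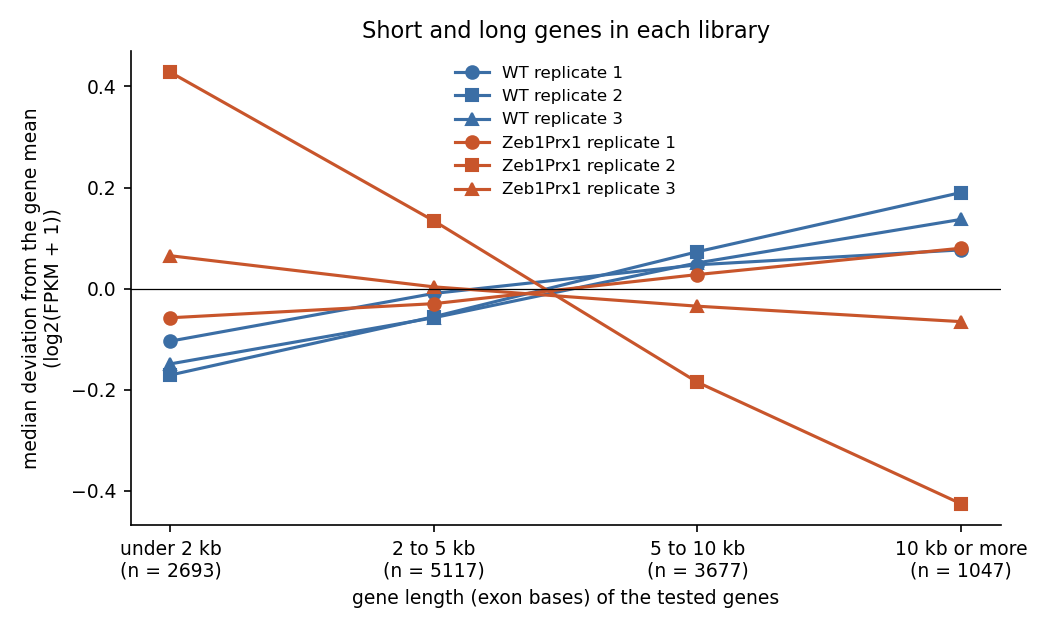
Median deviation of log2(FPKM + 1) from the mean of each gene over the libraries (vertical axis) for tested genes in 4 length classes (horizontal axis, number of genes below), 1 line per library. Zeb1Prx1 replicate 2 runs from 0.43 for genes under 2 kb to -0.43 for genes of 10 kb or more, the steepest of the 6 lines.

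Partners of the repressors were described next from lists, with no test of a list as a whole. Of 28 corepressor and chromatin genes, 26 were tested, 0 were called, and 17 had a log2 change below 0 with a median of -0.17. Without overlap, 2 were higher and 5 lower, beside 12.6% and 11.8% of all tested genes. Ajuba, which encodes a LIM protein and corepressor of Snail, had 9.91 ± 1.25 FPKM in WT against 15.9 ± 1.01 in Zeb1Prx1, with each mutant library above each WT library. The acetyltransferase gene Ep300 had 13.3 ± 2.28 and 7.21 ± 3.39, and Sin3a 12.5 ± 0.818 and 9.39 ± 1.18. Both were lower without overlap, and none of the 3 passed (limma adjusted p between 0.259 and 0.302).

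Among 14 bHLH partners and Id antagonists, 8 were tested and 0 called, with 5 above 0, 3 below and a median of 0.04. Without overlap 2 were higher and 0 lower, beside 12.6% and 11.8% of all tested genes. Id proteins dimerise with E proteins and so take them from Twist. Id1 had 15.1 ± 5.98 FPKM in WT against 38.2 ± 9.24 in Zeb1Prx1, and Id3 75.5 ± 18.8 and 166 ± 54.1, both without overlap (limma adjusted p = 0.264 and 0.273). The tendon bHLH factor Scx had 14.4 ± 7.91 and 30.7 ± 11.1 and overlapped, and the E protein gene Tcf12 had 6.26 ± 0.501 and 5.56 ± 1.53. Of the partner genes under the filter, Hand2, a limb bHLH factor that can pair with Twist1, had 179 fragments in WT, nearly all from replicate 2 (4.81 FPKM), and 61 in Zeb1Prx1.

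Of 26 genes that control the stability of these proteins, 24 were tested and 0 called, with 16 below 0 and a median of -0.08. Without overlap 1 was higher and 5 were lower, beside 12.6% and 11.8% of all tested genes. The 4 with the smallest p are named here. The kinase gene Atm had 3.43 ± 0.348 and 1.82 ± 1.11 FPKM, and the ubiquitin ligase gene Fbxl14, whose product degrades Snail and Twist proteins, 16.5 ± 1.21 and 13.5 ± 0.726. Siah1a, another ubiquitin ligase gene, had 8.59 ± 0.174 and 11.9 ± 2.87, and the deubiquitinase gene Usp37 2.14 ± 0.234 and 1.56 ± 0.257. The genotypes did not overlap for these 4, and none was called (limma adjusted p from 0.321 to 0.383). Over 23 upstream inducers and mediators, 20 were tested and 0 called, with 15 below 0 and a median of -0.18. The receptor gene Tgfbr1 had 37.1 ± 5.93 and 23.2 ± 7.20 FPKM and overlapped, Tgfbr2 61.7 ± 7.86 and 49.8 ± 10.2, the ligand gene Tgfb1 45.4 ± 0.332 and 39.1 ± 5.29, and Nfkb1 12.0 ± 0.24 and 10.1 ± 0.503. None of these 4 passed (limma adjusted p between 0.301 and 0.483).

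Of 22 other transcription factors of mesenchyme, 18 were tested and 0 called, with 9 above 0, 9 below and a median of 0.09, and 4 were higher and 0 lower without overlap, beside 12.6% and 11.8% of all tested genes. Sox9, which drives cartilage differentiation, had 4.65 ± 0.692 FPKM in WT and 15.0, 6.27 and 40.7 in the mutant replicates. Foxc1 had 6.24 ± 2.43 and 18.8 ± 11.7, and Tbx18 3.93 ± 0.602 and 7.80 ± 4.04 (limma adjusted p between 0.298 and 0.325 for the 3). Foxc1 overlapped between genotypes, and Sox9 and Tbx18 did not. Mutant replicate 3 was the highest library for all 3.

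Most of the epithelial genes named as targets of the family were near 0 in WT, and others, such as Mpp5 and Jup with 2328 and 1697 WT fragments, were expressed in both genotypes. Their median level over all 44 lay between 0.0479 and 0.0676 FPKM in the WT libraries, against 0.38, 0.226 and 0.713 FPKM in mutant replicates 1, 2 and 3. Of the 11 that were tested, 0 were called, 7 were above 0 and 4 below, and 4 were higher and 1 lower without overlap, beside 12.6% and 11.8% of all tested genes. The list was chosen with earlier results of these data known, so these counts are no independent result. Of those with fewer fragments in the mutant, Krt19 and Tjp3 were named after their values were seen: Krt19 had 683 in WT and 391 in Zeb1Prx1, and Tjp3 379 and 297. Spint2, a membrane inhibitor of serine proteases, had 0.168, 0.243 and 0.1 FPKM in WT, against 10.7, 10.2 and 35.2 in Zeb1Prx1 (limma adjusted p = 0.22). It passed the filter through the mutant libraries alone. The junction protein gene F11r had 5.58 ± 1.82 and 12.9 ± 2.64, the P-cadherin gene Cdh3 1.76 ± 1.16 and 5.65 ± 2.13, and Sh3yl1 1.73 ± 0.27 and 2.79 ± 0.554, none of which passed (limma adjusted p between 0.261 and 0.302). Under the filter, the keratin gene Krt8 had 0 fragments in WT and 206, 23 and 454 in Zeb1Prx1, the desmosome gene Dsp 11 and 652 in total, and the polarity gene Patj 224 and 866.

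Fragments of these 44 genes were also read against the E-box search, scaled to the assigned fragments of each genotype. Of the 19 genes with the E-box, 17 had more than 3 fragments in a genotype, and 13 of those were more than 2-fold higher in Zeb1Prx1. Some of the 13, such as Krt8 (0 fragments in WT) and Elf3 (1), had more than 3 fragments only in Zeb1Prx1. Of the 6 genes with a window and no E-box (Ovol2, Grhl1, Cldn1, Jup, Spint1 and Sh3yl1), 5 had more than 3 fragments, 5 were higher in Zeb1Prx1 and 0 were more than 2-fold higher. Of the genes with no E-box, Jup and Spint1 already had 1697 and 344 fragments in WT, so the 2 groups also differed in WT level. Among the 19 genes without a window, 12 were more than 2-fold higher. The share of all genes that were more than 2-fold higher is not given here, so these counts have no background. The list was made of known targets and chosen with earlier results of these data known. Neither the share with an E-box nor the share that was higher is therefore independent evidence. Whether the share that was higher differs with the E-box was not tested.

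Mesenchymal genes that the factors are known to raise did not move one way. Of 28, 26 were tested and 0 called, with 13 above 0, 13 below and a median of 0.06. The collagen gene Col5a2 had 196 ± 26.4 FPKM in WT against 377 ± 71.5 in Zeb1Prx1, and the matrix protein gene Sparc 770 ± 106 against 1461 ± 465. Pdgfrb had 34.4 ± 2.19 and 23.8 ± 5.78, and the receptor kinase gene Axl 82.4 ± 37.2 and 42.2 ± 12.8. The genotypes did not overlap for any of these 4, and none passed (limma adjusted p between 0.264 and 0.317). Over the 26 tested, 4 were higher and 2 lower without overlap, beside 12.6% and 11.8% of all tested genes. The microRNAs of the loops that control the family, which include the miR-200 group known to silence Zeb1 and Zeb2, had almost no fragments, 10 of the 12 listed genes being at 0 in every library. The 1 tested was Dnm3os, the host of Mir199a-2 and Mir214, which Twist1 is known to activate, with 4.80 ± 2.51 and 4.36 ± 0.592 FPKM (limma adjusted p = 0.962).

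**Figure D5:**
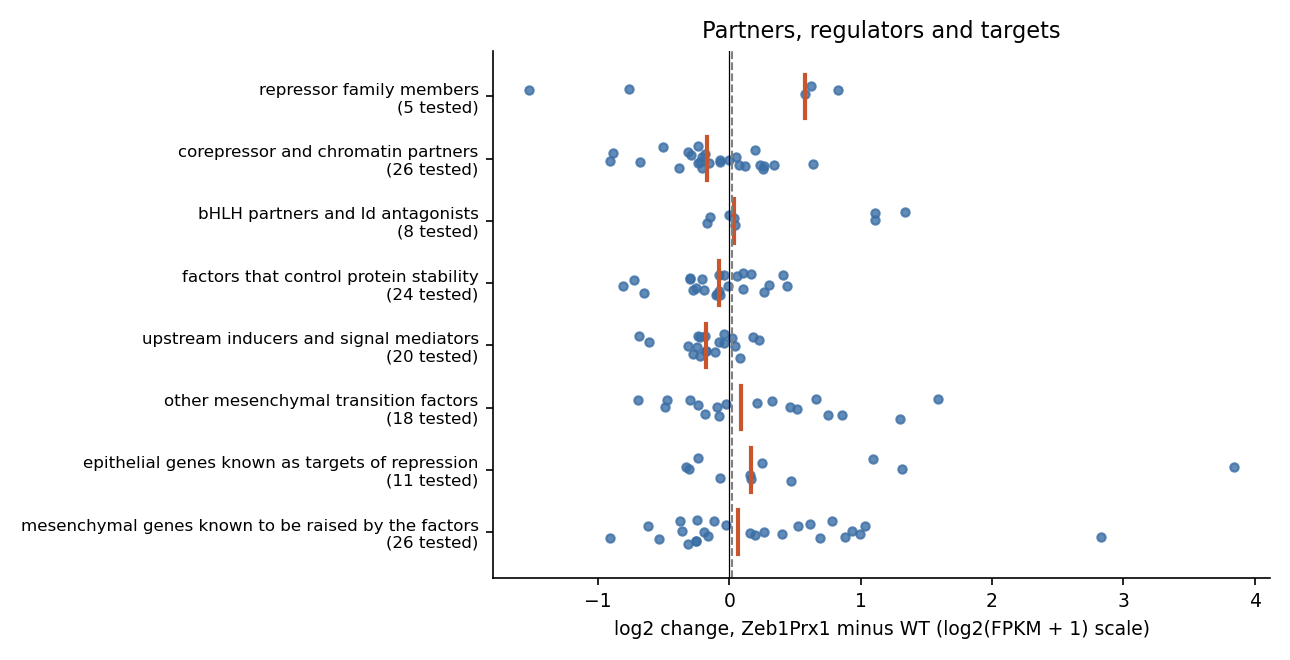
Log2 change (horizontal axis, Zeb1Prx1 minus WT on log2(FPKM + 1)) of the tested genes of 8 lists (rows); each point is a gene, the orange bar is the median of the list and the dashed line the median of all tested genes. The medians of the 7 lists besides the family lie between -0.18 and 0.17, and single genes such as Spint2 lie far from them.

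Genes whose log2(FPKM + 1) followed each member most closely over the 6 libraries were taken from the 7255 genes that code for protein and average 5 FPKM or more. They were Rab31 (Pearson r = 0.989), Igf1 (0.987) and Gxylt1 (0.983) for Zeb1, and Cep120 (0.997) for Zeb2. For Snai1 they were Optn (0.985), Arfgap3 (0.983) and Sdc2 (0.978), for Snai2 Clec11a (0.987), Klhl9 (0.984) and Lmcd1 (0.983), and for Twist1 Armcx2 (0.978), Dbp (0.973) and Maged2 (0.968). With 6 libraries such values are common: between 43 genes for Snai2 and 532 for Zeb2 had an r above 0.9. Clec11a, a growth factor gene of bone stroma, had 16.7 ± 13.8 FPKM in WT against 63.8 ± 17.6 in Zeb1Prx1, and the growth factor gene Igf1 52.4 ± 6.07 and 33.3 ± 3.83.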

How the data were processed

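RNA-seq of 3 WT and 3 Zeb1Prx1 libraries was analysed. The authors deposited gene-level FPKM beside annotation of each gene (name, position, length), per the file headers. The submitters' processing notes name the build mm10. Which aligner and counter were used, and whether strand was used, is not given in the sources used here. Multiplying FPKM by length and dividing by 1 constant per library gave whole numbers of fragments for all 127408 of 127408 values above 0 (relative tolerance 1e-06). Median-of-ratios factors computed from the deposited FPKM were 1.01 in all 6 libraries, so the values already carry that scaling. Of the gene identifiers, 54495 occur in GENCODE M21.

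Limma (version 3.58.1, R 4.3.3) compared the genotypes on log2(FPKM + 1) with an intensity trend and no block, over genes with at least 1 FPKM in at least 3 libraries, with Benjamini-Hochberg adjustment and a threshold of 0.05. It was tested on simulated data. Shares and sums were compared by exact permutation tests (scipy 1.17.1). The alternatives tried were other pseudocounts, filters, scalings, weights, a replicate block, voom, leaving out each library and removing the length trend. The members and lists were chosen with earlier results of these data known. All 331 listed genes matched, 3 of them by an older symbol. Named genes were the members, overlapping genes, up to 4 tested genes per list with the smallest p, up to 3 under the filter with the most fragments, and the 3 most alike genes per member. A few genes that this rule names are not reported here.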

Additional observations from a re-analysis of the deposited data

How the results depend on the processing

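All 5 tested members kept their direction under each of their 19 alternatives, and none passed except Zeb1 and Zeb2 with library weights (log2 changes -1.34 and -0.83, limma adjusted p = 0.042 and 0.0463). That setting put most of the mutant weight on Zeb1Prx1 replicate 3. The number of genes called moved from 0 to 447 with library weights and to 1 with the length trend removed and Zeb1Prx1 replicate 2 left out. Leaving out 1 library gave 0 to 1 genes called (1 without Zeb1Prx1 replicate 2), and log2 changes of -1.69 to -1.36 for Zeb1, -0.95 to -0.64 for Zeb2, 0.60 to 1.19 for Snai1, 0.42 to 0.79 for Snai2 and 0.43 to 0.79 for Twist1. It also gave -0.074 to 0.50 for Twist1 and -0.072 to 0.45 for Snai2 against the stromal genes, which reversed without WT replicate 2 and, for Snai2, also without Zeb1Prx1 replicate 2 (-0.040). The cause was not tested. Genes at an unadjusted p under 0.05 numbered 1897, 3866 with library weights, and 1118 to 2821 when 1 library was left out (1118 without WT replicate 2, 1135 without WT replicate 3, 1184 without Zeb1Prx1 replicate 3). Rescaling to an equal FPKM sum moved the median change of all genes from 0.02 to -0.12 and changed no direction of a member. Same-numbered libraries did not deviate together (r = 0.03, -0.41 and 0.08 over 12534 genes), and not every library correlated best with its own number. The numbers thus gave no sign of pairing, which 3 libraries per genotype cannot exclude. With the replicate block, 0 genes were called, 1347 had an unadjusted p under 0.05, and Zeb1 had an adjusted p of 0.379, with no call changed. Depth limits Snai3 and Twist2, which had 1 and 174 fragments in all.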

Other observations

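Bone cell genes outside the comparisons also differed in level between the libraries. Of 14 osteoblast markers, 12 were tested and 0 called by limma, 11 lay above 0 (median log2 change 0.72), and 4 were higher in Zeb1Prx1 without overlap, beside 12.6% of all tested genes. Of 11 osteoclast markers, 6 were tested and 0 called, with 4 below 0 and a median of -0.45. Without overlap 1 was higher and 2 were lower, beside 12.6% and 11.8% of all tested genes. The higher one was Ctsk, with 34.1 ± 5.88 FPKM in WT and 57.1 ± 8.64 in Zeb1Prx1. Csf1r, the receptor of the growth factor of macrophages and osteoclasts, had 491 FPKM on average in WT and 323 in Zeb1Prx1.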
